A study of Mus musculus with 6 samples.

Results

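Intraflagellar transport (IFT) is the movement of large protein complexes along the microtubules of a growing cilium or flagellum. The IFT-B complex travels outwards with the kinesin-2 motor and carries tubulin and other building blocks, and the IFT-A complex travels back with the dynein-2 motor and also brings membrane proteins into the cilium. In the mouse testis IFT proteins are known for building the sperm tail, which spermatids assemble after meiosis, and the loss of several of them from male germ cells leads to short or malformed flagella.

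The 10 genes described here were Ift20, Ift27, Ift52, Ift57, Ift74, Ift80, Ift81, Ift88, Ift140 and Ift172. They were chosen by gene symbol from the 54532 genes of the expression table, and all 10 were found. Ift140 encodes an IFT-A subunit and the other 9 encode IFT-B subunits. The samples were STRA8+ germ cells from mouse testis, profiled by bulk RNA-seq of total RNA in 3 control libraries, whose genotype was given as Cre, and 3 libraries of a conditional knockout of Srsf1 (cKO), whose genotype was given as Srsf1 knockout. STRA8 is a retinoic acid-responsive protein of germ cells that approach meiosis, and Srsf1 encodes a serine/arginine-rich splicing factor. Conditional knockout was given as the treatment of both groups. The labels gave neither the Cre driver nor the age of the mice, nor did they say whether the libraries of a group came from separate mice, so that the p-values measure only the spread between these libraries. Expression was given as FPKM, fragments scaled by gene length and library depth, and the fragments recovered from it summed to between 15364511 and 17310353 in the control and between 14447887 and 15326722 in the cKO libraries.

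The targeted gene and the stage markers were examined first. Srsf1 was at 84.7, 45.2 and 51.9 FPKM in the control libraries and at 5.08, 4.94 and 5.17 FPKM in the cKO libraries, so each cKO library was far below each control library. Stra8 itself was at 222 to 262 FPKM in the control and 242 to 313 FPKM in the cKO libraries, and these ranges overlapped. The control libraries also held transcripts of later stages. The 10 spermatid markers, which include the protamines Prm1 and Prm2, summed to 2507, 8287 and 2465 FPKM in control 1 to 3 and to 8.86, 8.41 and 6.39 FPKM in the cKO libraries, and control 2 stood apart from the other controls in this sum. The 24 markers of Sertoli, Leydig, peritubular and blood cells together summed to 87.4 to 99.9 FPKM in the control and 69.1 to 144.8 FPKM in the cKO libraries. A large part of this sum was the Sertoli gene Clu, at 42.1 to 63.1 FPKM in the control and 32.6 to 79.3 FPKM in the cKO libraries. Of the 14 that could be tested, 1 was called, the Sertoli gene Rhox5, as higher in cKO, against 11.8% of all genes tested.

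Of the 10 IFT genes, 6 were lower in the cKO cells, to very unequal degrees. Ift140 and Ift172 fell to 28.4% and 30.5% of their control means in FPKM, Ift57 and Ift27 to 39.0% and 40.5%, and Ift74 and Ift52 to 64.3% and 73.5%. Ift80, Ift81, Ift20 and Ift88 did not pass the test, although their cKO means also lay below the control means. All 10 genes passed the filter of a mean of at least 1 FPKM. The count was 6 of 10 called lower and 0 called higher at an adjusted p of at most 0.05 in limma, with Benjamini-Hochberg adjustment over the 15451 genes tested. Over all genes tested, 22.2% were called lower and 11.8% higher, that is 3437 and 1821 genes, and under quantile normalization the balance turned to 2527 lower and 5164 higher. The median log2 fold change of the 10 IFT genes was -0.52 and that of all genes tested was -0.01. In 8 of 10 IFT genes all 3 cKO libraries lay below all 3 control libraries, a pattern seen in 28.6% of all genes tested. Without control 1 or without cKO 3, 4 of 10 were called lower, and 5 of 10 without control 2, control 3 or cKO 1. Without cKO 2, 6 of 10 were called, with Ift81 in place of Ift27. In these bulk libraries fewer cells that express a gene and less RNA of it per cell cannot be told apart.

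**Figure D1:**
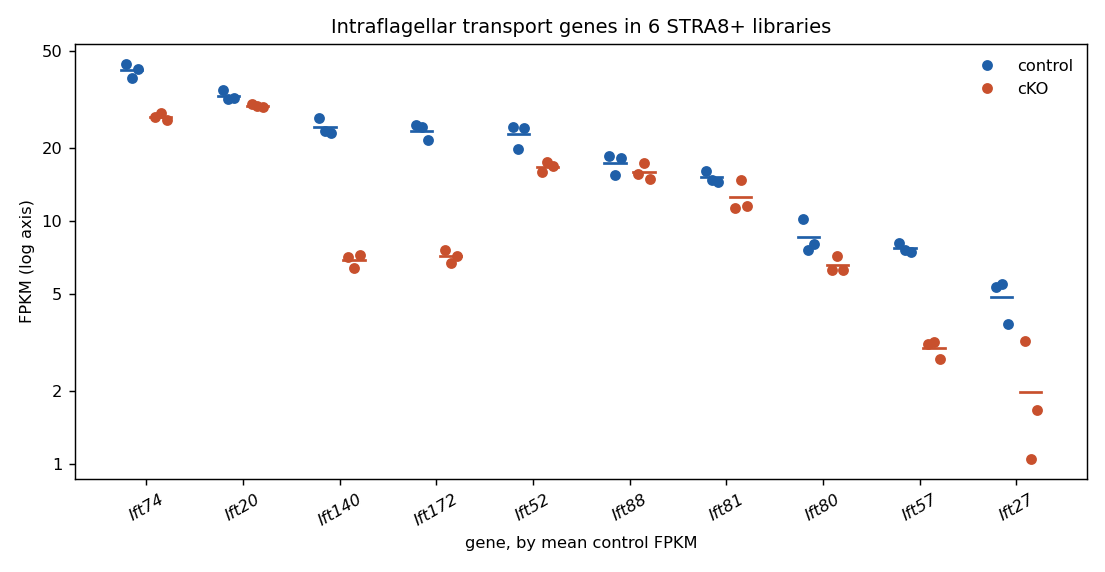
FPKM (log axis) of the 10 IFT genes in the 3 control and 3 cKO libraries, in the order of the mean control level; points are libraries and short bars are group means. The control and cKO points of Ift140, Ift172, Ift57 and Ift74 are well separated, whereas those of Ift81 and Ift88 overlap.

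Promoter sequences are shown because some RFX transcription factors, known regulators of cilium genes, were among the genes that changed. RefSeq windows on GRCm38.p6, from 250 bases before to 50 bases after the start, were at hand for 8 of the 10 genes, all but Ift80 and Ift81. The windows were searched on both strands for the element GTTGCC of RFX factors, for the X-box (GTNNCC, any pair of bases and GGNNAC), to which RFX factors bind as dimers, and for the cAMP response element TGACGTCA, to which CREM and related factors bind. Only this spacing of the X-box was searched. The windows of Ift140, Ift172 and Ift57, which were called lower under every alternative tried, are shown with that of Ift20, which did not pass the test. Each is on the gene's own strand, 5′ to 3′, and capitals mark the matches.
Ift140, chr17:25015836-25016135, plus strand: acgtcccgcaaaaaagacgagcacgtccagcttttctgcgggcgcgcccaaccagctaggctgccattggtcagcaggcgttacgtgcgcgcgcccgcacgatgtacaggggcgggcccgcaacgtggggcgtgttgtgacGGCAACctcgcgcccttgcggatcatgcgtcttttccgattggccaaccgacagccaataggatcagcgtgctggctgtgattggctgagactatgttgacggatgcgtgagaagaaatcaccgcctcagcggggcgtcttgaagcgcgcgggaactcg
Ift172, chr5:31291065-31291364, minus strand: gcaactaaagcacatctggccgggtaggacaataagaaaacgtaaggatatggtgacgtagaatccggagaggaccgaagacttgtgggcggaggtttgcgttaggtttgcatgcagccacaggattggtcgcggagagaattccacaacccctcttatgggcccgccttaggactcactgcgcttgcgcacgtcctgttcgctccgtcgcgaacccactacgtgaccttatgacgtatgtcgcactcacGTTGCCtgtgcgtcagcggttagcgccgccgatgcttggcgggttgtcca
Ift57, chr16:49699044-49699343, plus strand: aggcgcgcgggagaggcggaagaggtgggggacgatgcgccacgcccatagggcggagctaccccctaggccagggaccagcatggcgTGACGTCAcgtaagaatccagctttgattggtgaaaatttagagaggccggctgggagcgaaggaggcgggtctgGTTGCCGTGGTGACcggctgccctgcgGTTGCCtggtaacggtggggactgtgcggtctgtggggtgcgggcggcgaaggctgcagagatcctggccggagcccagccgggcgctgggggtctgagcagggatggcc
Ift20, chr11:78536111-78536410, plus strand: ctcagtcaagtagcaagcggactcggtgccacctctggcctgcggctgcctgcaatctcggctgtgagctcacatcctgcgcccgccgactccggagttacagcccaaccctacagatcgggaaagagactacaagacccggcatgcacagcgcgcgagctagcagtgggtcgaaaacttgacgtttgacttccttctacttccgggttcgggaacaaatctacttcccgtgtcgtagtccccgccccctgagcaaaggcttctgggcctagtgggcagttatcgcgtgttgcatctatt

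The Ift57 window held the most matches, with the cAMP response element at position -162, the X-box at -87 and a further GTTGCC at -60, where 0 is the RefSeq start. The X-box began with a GTTGCC, so these matches overlap. The GTTGCC at -60 is followed by tggtaac, which holds a GGNNAC at a shorter spacing that the search did not cover. The Ift140 window held GTTGCC on the opposite strand at -109, and that of Ift172 held it at 0. No match was found in the window of Ift20. GTTGCC occurred in 5 of 8 windows, those of Ift27, Ift57, Ift88, Ift140 and Ift172, against 12.5% of the 32851 windows of the mouse genome and 13.6% of those of the genes tested. The X-box in the spacing searched occurred in 1 of 8 windows, against 1.88% of all windows and 2.62% of those of the genes tested. The cAMP response element occurred in 1 of 8, against 1.79% and 3.12%. Of these 8 genes, GTTGCC was found in 4 of the 6 called lower, Ift140, Ift172, Ift57 and Ift27, and not in Ift74 and Ift52. Of the 2 that were not called it was found in Ift88 and not in Ift20. Binding of RFX factors or CREM to these windows, and a part of them in the lower IFT levels, was not tested.

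Ift140, the single IFT-A subunit of the set, changed most. This large scaffold subunit is needed for transport back to the cell body. Ift140 (chr17:25016085-25099495, plus strand, GRCm38) was at 26.6, 23.6 and 23.0 FPKM in the control libraries and at 7.13, 6.43 and 7.23 FPKM in the cKO libraries. The groups were far apart, with the highest cKO library well below the lowest control library. The group means were 24.4 ± 1.92 and 6.93 ± 0.434 FPKM (SD, n = 3 each), a 3.52-fold lower level in cKO. On the log2(FPKM + 1) scale, which understates changes of low genes, the log2 fold change was -1.68 (SE 0.088, 95% interval -1.89 to -1.47, limma adjusted p = 2.0e-05). These values rested on 3009 to 3648 fragments in the control and 785 to 933 in the cKO libraries. Of all genes tested, 8.42% had a lower log2 fold change than Ift140.

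The peripheral IFT-B subunits connect the complex to kinesin-2 and to cargo. Of the 4 here, 2 were called lower, Ift172 and Ift57, against 22.2% of all genes tested. Ift172 (chr5:31253277-31291116, minus strand), the largest of them, was at 24.8, 24.4 and 21.5 FPKM in the control and at 7.62, 6.74 and 7.20 FPKM in the cKO libraries. Its 2 groups did not overlap and were about as far apart as those of Ift140. The means were 23.6 ± 1.78 and 7.19 ± 0.439 FPKM (SD, n = 3 each), which is 30.5% of the control level, and the log2 fold change was -1.58 (SE 0.088, limma adjusted p = 2.5e-05).

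Ift57 (chr16:49699233-49765126, plus strand), also known as Hippi, was at 8.10, 7.64 and 7.43 FPKM in the control and at 3.14, 3.20 and 2.71 FPKM in the cKO libraries. The libraries of each group lay close together, and the groups did not overlap. Its means were 7.72 ± 0.343 and 3.02 ± 0.264 FPKM (SD, n = 3 each), or 39.0% of control, and its log2 fold change was -1.12 (SE 0.099, limma adjusted p = 2.0e-04). The non-coding gene Gm15518 overlaps 7.86% of the exon bases of Ift57 on the opposite strand, and it was at 0 to 0.259 FPKM.

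Ift80 (chr3:68892499-69004570, minus strand), a subunit whose human gene is mutated in short-rib thoracic dysplasia, was at 10.2, 7.59 and 8.06 FPKM in the control and at 6.28, 7.17 and 6.27 FPKM in the cKO libraries. The groups did not overlap, but cKO 2 came close to control 2. Its log2 fold change was -0.34 (95% interval -0.63 to -0.04), and it missed the threshold after adjustment (limma adjusted p = 0.079). Ift80 was called in 1 of 16 alternatives, limma-voom on the recovered fragments (adjusted p = 0.048). Its log2 fold change was -0.22 without control 1 (adjusted p = 0.19) and -0.08 under quantile normalization (adjusted p = 0.64).

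Ift20 (chr11:78536361-78541737, plus strand), a small subunit that also resides at the Golgi apparatus, was at 34.6, 31.7 and 32.1 FPKM in the control and at 30.2, 29.7 and 29.5 FPKM in the cKO libraries. Every cKO library was below every control library, yet the gap was small, and the cKO mean was 90.8% of the control mean. The log2 fold change was -0.13 (95% interval -0.29 to 0.02, limma adjusted p = 0.16).

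Of the 5 core subunits of IFT-B, 3 were called lower, namely Ift74, Ift52 and Ift27, against 22.2% of all genes tested. Ift74 (chr4:94614491-94693229, plus strand) forms a pair with Ift81 that binds tubulin. Ift74 was at 44.4, 38.7 and 42.3 FPKM in the control and at 26.7, 27.8 and 26.1 FPKM in the cKO libraries. All cKO libraries lay well below all control libraries. Its cKO mean was 64.3% of the control mean, and its log2 fold change was -0.62 (SE 0.074, limma adjusted p = 8.8e-04).

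Ift81 (chr5:122550204-122614518, minus strand), the partner of Ift74, was at 16.1, 14.8 and 14.5 FPKM in the control and at 11.3, 14.8 and 11.5 FPKM in the cKO libraries. The groups overlapped because cKO 2 was at the control level while the other cKO libraries were below it. The log2 fold change was -0.26 (95% interval -0.53 to 0.02, limma adjusted p = 0.13). Without cKO 2 it was -0.38 with an adjusted p of 0.027, so 1 library decided whether Ift81 was called.

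Ift52 (chr2:163017354-163046141, plus strand), which holds the core together, was at 24.4, 19.8 and 24.1 FPKM in the control and at 15.9, 17.5 and 16.8 FPKM in the cKO libraries. The groups did not overlap, and control 2 was the control nearest to the cKO libraries. The cKO mean was 73.5% of the control mean, and the log2 fold change was -0.42 (SE 0.098, limma adjusted p = 0.017). The adjusted p rose to 0.058 without control 1, 0.062 without control 3, 0.058 without cKO 1 and 0.057 without cKO 3, and the call held without control 2 or cKO 2. The call was also lost under quantile normalization (limma adjusted p = 0.065).

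Ift88 (chr14:57424062-57517936, plus strand), a core subunit known from the Tg737 polycystic kidney mouse, was at 18.4, 15.4 and 18.2 FPKM in the control and at 15.6, 17.4 and 14.8 FPKM in the cKO libraries. The groups overlapped, with cKO 2 above control 2. Its log2 fold change was -0.12 (95% interval -0.35 to 0.12, limma adjusted p = 0.40), and its sign turned under quantile normalization. The log2 fold change was -0.20 without control 2, -0.18 without cKO 2, -0.07 without control 1 and -0.07 without cKO 3, and Ift88 was called in 0 of 16 alternatives (limma adjusted p from 0.14 to 0.88). The non-coding gene Ift88os overlaps 1.45% of the exon bases of Ift88 on the opposite strand and was at 0.474 to 1.08 FPKM.

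Ift27 (chr15:78159463-78174107, minus strand) encodes a small GTPase that works with Ift25 in the export of the BBSome from cilia. It was the lowest of the 10 genes and the most variable, at 5.36, 5.54 and 3.77 FPKM in the control and at 3.22, 1.05 and 1.68 FPKM in the cKO libraries. The groups did not overlap, but control 3 and cKO 1 were close, and the cKO values rested on 145, 44 and 73 fragments. The means were 4.89 ± 0.971 and 1.98 ± 1.12 FPKM (SD, n = 3 each), and the log2 fold change was -1.03 with a wide 95% interval of -1.69 to -0.38 (limma adjusted p = 0.027). The call was lost without control 1 (0.086), control 2 (0.069), cKO 2 (0.064) or cKO 3 (0.086, all limma adjusted p). It was also lost when genes of any level were tested (limma adjusted p = 0.057) and under quantile normalization (0.059).

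Because the genes fell unequally, the make-up of the IFT transcripts shifted. In the control libraries Ift74 was the highest of the 10 genes in FPKM, followed by Ift20, and then by Ift140, Ift172 and Ift52, whose ranges overlapped from neighbour to neighbour. Below them came Ift88 and Ift81, which overlapped, then Ift80 and Ift57, which also overlapped, and last Ift27. In the cKO libraries Ift20 ranked above Ift74, and Ift140 and Ift172 had dropped below Ift52, Ift88 and Ift81 to the level of Ift80. The summed level of the 10 genes was 213.0, 189.0 and 195.1 FPKM in the control and 127.0, 131.8 and 123.9 FPKM in the cKO libraries. The cKO sum was 64.1% of the control sum, and these groups did not overlap. Ift140 made up 12.2% of the control sum and 5.44% of the cKO sum, and Ift172 made up 11.9% and 5.64%. The share of Ift20 went from 16.5% to 23.4% and that of Ift88 from 8.73% to 12.5%, whereas the share of Ift74 in the cKO libraries, 21.1% on average, lay within its control range. The mean of the highest gene exceeded that of the lowest 8.54-fold in the control, and by more in the cKO libraries.

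Ratios of FPKM within a library do not depend on any factor by which a whole library was scaled. The pairs were chosen after the values were seen, so the ratios are a description with no test. The ratio of Ift140 to Ift88 was 1.44, 1.53 and 1.26 in the control and 0.457, 0.371 and 0.487 in the cKO libraries, and that of Ift172 to Ift88 was 1.35, 1.58 and 1.18 against 0.489, 0.388 and 0.485. Both genes thus went from above Ift88 in every control library to below it in every cKO library. The ratio of Ift57 to Ift20 was 0.234, 0.241 and 0.231 in the control and 0.104, 0.108 and 0.0919 in the cKO libraries. The ratio of Ift74 to Ift81, whose proteins pair with each other, was 2.75, 2.62 and 2.92 in the control and 2.36, 1.87 and 2.27 in the cKO libraries. Ift27 stood at 0.212, 0.262 and 0.167 of its partner Hspb11 (Ift25) in the control and at 0.126, 0.0317 and 0.0680 in the cKO libraries. None of these ratios overlapped between groups.

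**Figure D2:**
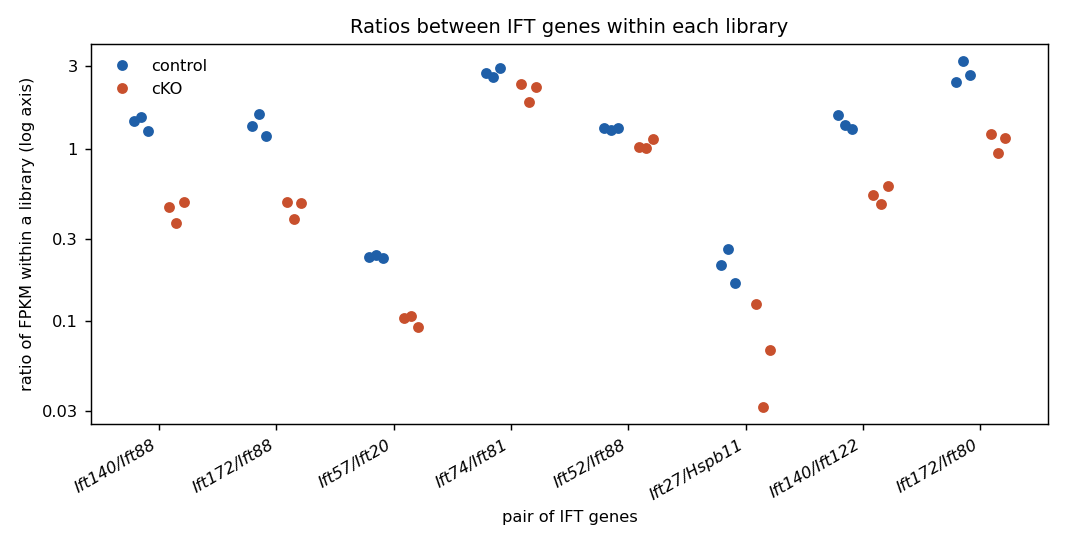
Ratio of the FPKM values of pairs of IFT genes within each library (log axis), with 3 control and 3 cKO points for each pair. The ratios of Ift140 and Ift172 to Ift88 lie above 1 in the control and below 1 in the cKO libraries.

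The rest of the IFT machinery was examined with lists of known subunits. All 5 other IFT-A subunits, 5 of 5 tested, were called lower, against 22.2% of all genes tested, and their median log2 fold change was -0.58. Under quantile normalization 3 of 5 were called, and 0 of 5 passed a minimum absolute log2 fold change of 1. Ift43, a small subunit, was at 14.5, 13.9 and 16.4 FPKM in the control and at 7.52, 6.91 and 7.29 FPKM in the cKO libraries, with a log2 fold change of -0.95 (limma adjusted p = 2.8e-04). Ttc21b (IFT139) fell by 0.62 (adjusted p = 0.0024) and Wdr19 (IFT144) by 0.58 (adjusted p = 0.0055) on the log2 scale. The log2 fold change of Ift140 was larger in size than that of each of these, a difference that was not tested. Ift122, which was named after its values were seen, had the smallest change of the 5, a log2 fold change of -0.40 (limma adjusted p = 0.0071).

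Of the 9 other IFT-B subunits 8 were tested, of which 5 were called lower and 0 higher, against 22.2% and 11.8% of all genes tested. Their median log2 fold change was -0.43. Ttc30a2 was at 14.3, 10.9 and 10.4 FPKM in the control and at 0.550, 0.421 and 0.379 FPKM in the cKO libraries, a log2 fold change of -3.14 (limma adjusted p = 1.1e-05). In FPKM itself its cKO mean was 26.4-fold lower, and the cKO values rested on only 14 to 21 fragments. Its change was larger in size than that of each of the 10 genes above, which was not tested. Ttc30a1 had a log2 fold change of -0.92 (adjusted p = 0.0010). Ttc30a1, Ttc30a2 and the untested Ttc30b are copies of IFT70, and 78.8%, 60.3% and 80.9% of the 100-base windows of Ttc30a1, Ttc30a2 and Ttc30b occurred in no other gene. Fragments from the rest of these genes may be split between the copies. Ift22, a small GTPase-like subunit, was at 10.7, 9.55 and 8.64 FPKM in the control and between 3.76 and 4.46 FPKM in the cKO libraries, with a log2 fold change of -1.05 (limma adjusted p = 4.7e-04). Hspb11, which was named after its values were seen, had a log2 fold change of 0.26 (95% interval -0.05 to 0.56, adjusted p = 0.17) and did not pass the test.

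Among the motors, 3 of 5 kinesin-2 genes and 4 of 5 dynein-2 genes were called lower and 0 higher, against 22.2% and 11.8% of all genes tested. Their medians were -0.61 and -0.71 in log2 fold change. Kif17, a homodimeric kinesin-2 abundant in the testis, was at 12.9, 25.1 and 13.4 FPKM in the control and at 4.71, 4.05 and 5.31 FPKM in the cKO libraries, with a log2 fold change of -1.61 (limma adjusted p = 0.0027). Control 2, the library with the highest spermatid sum, was also the highest for Kif17. Kif3b, a motor subunit of heterotrimeric kinesin-2, fell by 0.83 (adjusted p = 0.0013) and its accessory subunit Kifap3 by 0.61 (adjusted p = 0.012) on the log2 scale. The partner of Kif3b, Kif3a, was at 34.5, 33.7 and 35.7 FPKM in the control and at 35.7, 35.9 and 31.9 FPKM in the cKO libraries, and these overlapped. Its log2 fold change was -0.01 (95% interval -0.18 to 0.16, limma adjusted p = 0.94). In dynein-2, the light intermediate chain Dync2li1 fell by 1.24 (adjusted p = 0.0073), and the intermediate chains Wdr60 by 0.73 (adjusted p = 0.0010) and Wdr34 by 0.71 (adjusted p = 0.0017). The heavy chain Dync2h1 had a log2 fold change of -0.09 (95% interval -0.33 to 0.15, adjusted p = 0.51). Kif3a and Dync2h1 were named after their values were seen.

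The BBSome is the adaptor complex that rides on IFT and removes membrane proteins from cilia. Of its 10 genes, with the associated Arl6 and Lztfl1 counted in, 5 were called lower and 0 higher, against 22.2% and 11.8% of all genes tested. Their median log2 fold change was -0.41. Bbs5, which binds phosphoinositides, was at 6.31, 10.8 and 5.63 FPKM in the control and at 1.51, 1.68 and 1.59 FPKM in the cKO libraries, with a log2 fold change of -1.68 (limma adjusted p = 0.0013). Control 2 was again the highest control. Bbip1 fell by 0.70 (adjusted p = 0.0011) and Ttc8 (BBS8) by 0.63 (adjusted p = 0.023) on the log2 scale. Only 3 of the 10 were called lower without control 1 or without cKO 3, and 2 under quantile normalization, which like limma-voom called 1 higher.

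**Figure D3:**
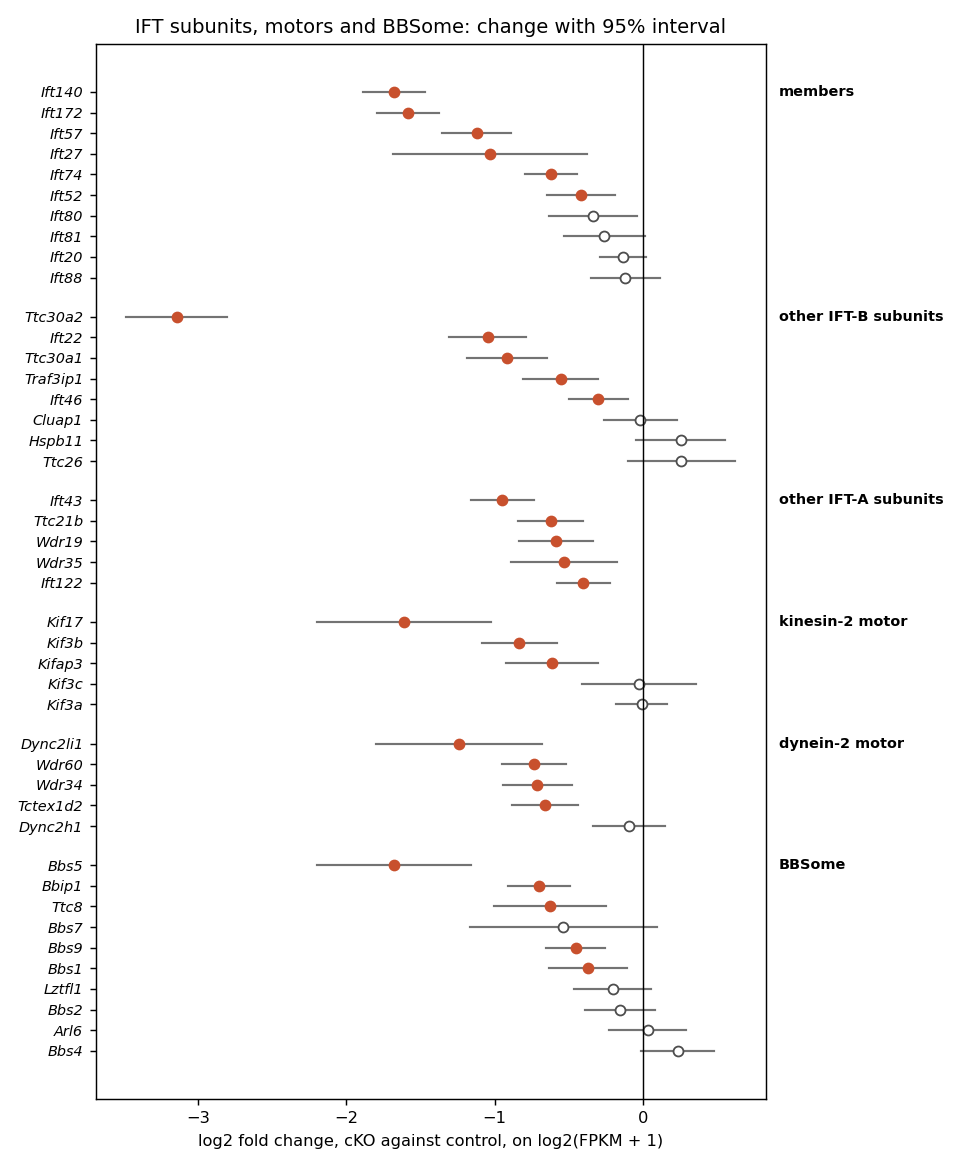
Log2 fold change of cKO against control on the log2(FPKM + 1) scale with its 95% interval for each IFT subunit, motor and BBSome gene tested; filled points passed an adjusted p of at most 0.05 and open points did not. All filled points lie to the left of 0, and in each group except the other IFT-A subunits some points are open.

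Of 8 transcription factors known for cilium or spermatid genes, 5 were called lower and 1 higher, against 22.2% and 11.8% of all genes tested. Their median log2 fold change was -1.04. Rfx4 was at 4.78, 6.57 and 4.10 FPKM in the control and at 0.0943, 0.0578 and 0.0696 FPKM in the cKO libraries, with a log2 fold change of -2.50 (limma adjusted p = 7.4e-05). In FPKM itself its cKO mean was 69.7-fold lower, and the cKO values rested on only 4 to 7 fragments. Rfx2, which controls cilium genes in spermatids, was at 17.0, 16.2 and 15.1 FPKM in the control and at 4.76, 3.97 and 4.32 FPKM in the cKO libraries. Its log2 fold change of -1.68 (limma adjusted p = 2.7e-05) was about that of Ift140. Sox30, which activates genes of spermatids, fell by 2.05 on the log2 scale (adjusted p = 0.0010). Rfx3, named after its values were seen, was at 2.46, 2.70 and 2.53 FPKM in the control and at 4.22, 4.54 and 3.91 FPKM in the cKO libraries. It was the called gene with the opposite direction, at a log2 fold change of 0.55 (limma adjusted p = 0.0075). Rfx1, also named after its values were seen, was at 13.1 to 15.3 FPKM in the control and 12.3 to 14.3 FPKM in the cKO libraries, which overlapped, and did not pass the test (log2 fold change -0.10, 95% interval -0.32 to 0.12, limma adjusted p = 0.44).

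Most markers of later germ cell stages were also lower in the cKO libraries. Over all genes tested, 22.2% were called lower and 11.8% higher. All 10 spermatid markers were called lower (median log2 fold change -5.06), and Catsper1, a channel gene of the sperm tail, was listed at 0 in all 3 cKO libraries. Of the 10 pachytene spermatocyte markers, 9 were called lower, the median was -3.35, and their sum was 1262, 1289 and 1106 FPKM in the control and 272, 256 and 244 FPKM in the cKO libraries. The earlier stages differed less between the groups. The 10 markers of early meiotic prophase summed to 1129, 840.1 and 1034 FPKM in the control and to 939.5, 1183 and 894.3 FPKM in the cKO libraries, with 2 called lower, 0 higher and a median of 0.03. Of 10 markers of differentiating spermatogonia 1 was called lower and 0 higher (median 0.19), and of 9 tested markers of undifferentiated spermatogonia 1 was called lower and 1 higher (median 0.11). The part of the spermatocyte and spermatid markers in the lower IFT levels was not tested. Within the control libraries, control 2 had the highest spermatid sum and the lowest IFT sum of the controls, it was the lowest control for 5 of the 10 genes and the highest for 1, Ift27, and control 1 was the highest for the other 9. Of the 4 plotted marker sums, that of early meiotic prophase ranked the libraries within each group in the same order as the IFT sum, and those of differentiating spermatogonia, pachytene spermatocytes and spermatids did not.

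**Figure D4:**
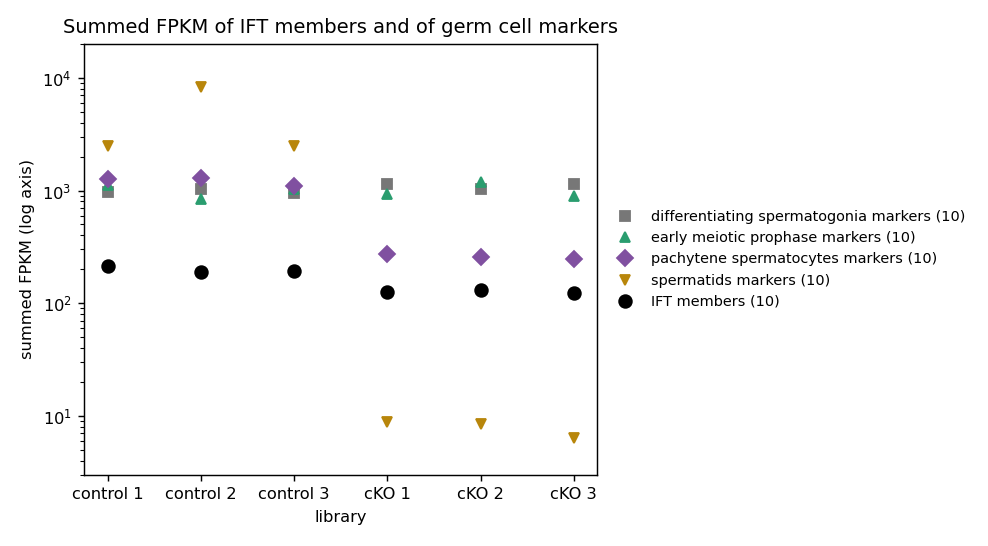
Summed FPKM (log axis) in each library of the 10 IFT genes and of 10 markers each of differentiating spermatogonia, early meiotic prophase, pachytene spermatocytes and spermatids. The IFT, pachytene and spermatid sums are lower in the 3 cKO libraries, and the spermatid sum of control 2 stands above those of the other controls.

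The protein-coding genes whose pattern was most like the mean standardized profile of the 10 IFT genes over the 6 libraries were Dcaf6 (Pearson r = 0.9987), Ulk2 (0.9985), Slc9a5 (0.9980), Dtx3 (0.9976) and Ptpdc1 (0.9972). Dcaf6, which encodes a substrate receptor of a ubiquitin ligase, was at 47.6, 35.5 and 38.4 FPKM in the control and at 22.0, 24.8 and 20.3 FPKM in the cKO libraries. Control 1 was the highest control and cKO 2 the highest cKO library, as in the sum of the IFT genes. The 6 points fall into 2 groups and share their libraries, and r was at least 0.9 for 2186 genes, or 14.1% of those tested, so these values are a description. The single IFT genes ran from an r of 0.991 for Ift74 to 0.704 for Ift88 with the profile they helped to form.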

How the data were processed

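Total RNA of STRA8+ cells was sequenced in 3 control and 3 cKO libraries. The authors deposited 1 table of FPKM per gene, with each gene's length. Reads had been aligned to mm10 with HISAT2 2.0.5, per the submitters' processing notes. The counting tool and annotation are not given in the sources used here, but the positions and exon lengths of the 10 genes equal those of GENCODE M21. Multiplied by gene length and by 1 denominator per library, inferred from the steps between low values, the FPKM gave whole fragments for 100% of values (within 0.01), and these are the depths stated. The denominators were 0.971 to 1.05 times the fragment sums.

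From the FPKM, log2(FPKM + 1) was fitted in R 4.3.3 with limma 3.58.1 (eBayes with trend) for genes whose mean over the libraries reached 1 FPKM, and p-values were adjusted over all genes tested (Benjamini-Hochberg, threshold 0.05). The method was also run on simulated data in which a small share of genes changed, unlike in these data, so that run does not bear on the calls given here. An exact permutation test of 3 against 3 libraries cannot go below 0.1, so sums and ratios are given without a test. Genes named from a list are the up to 3 called genes with the largest change, and the 5 most similar genes are the protein-coding ones of highest correlation. The members and lists were chosen with earlier results of these data known. Alternatives were other pseudocounts, filters, scalings, a replicate block, a minimum fold, limma-voom on the recovered fragments, and leaving out each library.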

Additional observations from a re-analysis of the deposited data

How the results depend on the processing

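Over 16 alternatives, 4 to 7 of the 10 IFT genes were called lower and 0 higher. Ift140, Ift172 and Ift57 were called in all 16 and Ift74 in 15, all but the minimum absolute log2 fold change of 1. Ift52 was called in 9 of 16 and Ift27 in 9 of the 15 that tested it. Quantile normalization moved the median of all genes to 0.21, and under it Ift88 turned to 0.021; relative to that median it was still lower.

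Genes called lower over all tested were 1950 with a mean of at least 5 FPKM and 1939 with the minimum fold. Genes called higher were 5164 under quantile normalization, 891 with the replicate block, 177 with the minimum fold and 969 to 1767 with a library left out. With the minimum fold, lower calls were 2 for other IFT-B, 0 for other IFT-A, 1 for kinesin-2, 1 for dynein-2 and 1 for BBSome genes, and 0 transcription factors were higher. Under quantile normalization, 1 other IFT-B gene and 1 BBSome gene were higher, and 3 IFT-A and 2 BBSome genes lower. With a mean of at least 5 FPKM, 3 BBSome genes and 3 transcription factors were lower and 0 factors higher. BBSome genes called lower were 3 with the replicate block and 3 to 5 with a library left out, and voom called 1 higher. Except where fewer genes were tested, the cause was not tested.

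The deviations of libraries of equal number had correlations of 0.00, -0.11 and 0.02. With 3 libraries per group these cannot show whether such libraries were paired. With the replicate block 5 IFT genes were called, without Ift52 (limma adjusted p = 0.060).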
